A study of Mus musculus with 32 samples.

Results

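The 40 genes described here feed pyruvate, branched-chain amino acids and ketone bodies into the citrate cycle or run the cycle itself, and they were followed in the atria of mice of 4 genotypes. Each gene was represented by its brightest probe set among those that the platform's annotation pairs with a single gene symbol. All 40 were found among 19938 named genes, and all 40 passed the filter on low signal that left 15219 genes for testing. By role there were 5 genes of pyruvate entry, 13 of the citrate cycle, 3 of the malate-aspartate shuttle, 6 of the first steps of branched-chain breakdown, 10 of the later steps of leucine, isoleucine, valine and propionate, and 3 of ketone use.

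The 16 mice carried no transgene (Ntg), Mst1, a dominant negative form of phosphoinositide 3-kinase (dnPI3K), or both (dnPI3K-Mst1), with 4 animals in each group. All were of combined C57BL/6 and FVB/N descent, ate standard chow and were kept at a controlled temperature under a 12 hour light cycle. Left and right atria went to separate Affymetrix Mouse Gene 1.0 ST arrays, which gave 8 arrays per genotype and 32 in all. Mst1, the product of Stk4, is a protein kinase of the Hippo pathway, and PI3K passes on insulin and growth factor signals. The promoters that drive the transgenes, the number of founder lines, and the age of the mice are not given in the sources used here. The design text states an interest in harmful insults to cardiac myocytes.

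The heart burns mostly fatty acids, with pyruvate, lactate, ketone bodies and amino acids as further fuels, and all of them end as acetyl-CoA or as intermediates of the citrate cycle in the mitochondrial matrix. Pyruvate enters through the pyruvate dehydrogenase complex or, by carboxylation, through pyruvate carboxylase. Leucine, isoleucine and valine lose their amino group to a transaminase, after which the branched-chain ketoacid dehydrogenase complex commits them to breakdown. That complex is switched off by the kinase BCKDK and switched on by the phosphatase PPM1K. The malate-aspartate shuttle carries reducing power from the cytosol to the matrix, and it uses the malate dehydrogenases and aspartate transaminases of both compartments.

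Promoter windows of 300 bases (250 before and 50 after the annotated start, RefSeq, GRCm38.p6) were held for 37 of the 40 genes, 7 of which had several. The stretches below run from 150 bases before to 30 after the start. They are shown for Ppm1k, which had the largest fall in the Mst1 animals, for Idh2, the one gene with a positive estimate in dnPI3K animals, and for 3 genes with the letters AANATGGCG (the YY1 motif). Capitals mark those letters and GGGCGG (the SP1 motif), each read on both strands. In order, the positions are chr6:57535458-57535637 (minus strand), chr7:80115321-80115500 (minus strand), chrX:73786868-73787047 (minus strand), chr7:25658732-25658911 (minus strand) and chr7:131410451-131410630 (plus strand).
Ppm1k: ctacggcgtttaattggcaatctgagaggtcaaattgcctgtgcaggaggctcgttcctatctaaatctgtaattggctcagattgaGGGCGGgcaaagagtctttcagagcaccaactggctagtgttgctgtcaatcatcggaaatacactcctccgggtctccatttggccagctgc
Idh2: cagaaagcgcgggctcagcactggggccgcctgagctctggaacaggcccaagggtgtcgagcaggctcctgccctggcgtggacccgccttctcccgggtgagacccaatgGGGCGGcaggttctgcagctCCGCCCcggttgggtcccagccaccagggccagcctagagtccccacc
Idh3g: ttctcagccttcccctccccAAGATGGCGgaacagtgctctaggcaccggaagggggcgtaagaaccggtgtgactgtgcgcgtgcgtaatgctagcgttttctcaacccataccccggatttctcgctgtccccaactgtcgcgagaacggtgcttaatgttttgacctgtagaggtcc
Bckdha: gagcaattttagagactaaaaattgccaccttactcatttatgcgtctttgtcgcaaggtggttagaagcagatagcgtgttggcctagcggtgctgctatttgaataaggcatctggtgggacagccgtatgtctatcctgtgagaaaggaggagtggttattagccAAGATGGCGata
Acadsb: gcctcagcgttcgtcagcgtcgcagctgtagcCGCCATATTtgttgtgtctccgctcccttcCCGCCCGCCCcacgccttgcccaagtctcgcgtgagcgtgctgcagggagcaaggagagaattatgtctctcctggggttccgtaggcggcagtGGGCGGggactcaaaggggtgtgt

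The YY1 letters stood in a window of 6 of the 37 genes (16.2%): Idh3g, Ogdh, Bckdha, Auh, Pccb and Acadsb. Of 11985 tested genes with a window 4.78% held them, as did 2.76% of all 27025 genes with one. In Bckdha they began at base 19 of the transcript, whereas in Idh3g they began at base -130, before the start. The SP1 letters stood in 59.5% of the 37 genes and in 63.3% of the tested genes. The ETS letters CCGGAAG were in 4 genes (Idh3b, Idh3g, Dlst and Auh), or 10.8%, against 16.7% of the tested genes. CRE letters (TGACGTCA) were found in Ogdh and Mdh2 (5.41% against 3.17%), and E-box letters (CACGTG) in Pcx, Ogdh and Mccc2 (8.11% against 11%). No window of the 37 genes held TNAAGGTCA (ERR, 0.985% of tested genes), the DR1 motif (0.0417%) or the NRF1 motif (1.96%). These shares are descriptions of the letters in the windows, and none was tested.

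Array medians lay within 0.18 log2 of each other. Of the 32 arrays, 4 correlated at under 0.97 on average with the rest: those labelled left of Mst1 1466, dnPI3K 3241 and dnPI3K 1507, and that labelled right of Ntg 1662. The side labels went against Bmp10, a gene known from the right atrium, in 13 of the 16 animals. There the array labelled left read between 11.42 and 12.77 log2 and that labelled right between 3.77 and 6.13. The reverse was seen in Ntg 1301, Ntg 1662 and Mst1 1839, so by this gene the arrays of 1 label mix both atria in Ntg (2 animals each way) and in Mst1. Sides are therefore named only as labelled. The results rest on the mean of an animal's arrays, which does not use the label, and a comparison on 1 label alone cannot be read as 1 on a single atrium. The Stk4 signal separated the genotypes with and without Mst1, with means of 7.54 ± 0.11 log2 in Ntg and 7.61 ± 0.13 in dnPI3K against 8.25 ± 0.09 in Mst1 and 8.33 ± 0.11 in dnPI3K-Mst1 (SD, n = 4 animals each). Pik3ca stood at 9.11 ± 0.25 in Ntg, 10.04 ± 0.09 in dnPI3K and 10.27 ± 0.13 in dnPI3K-Mst1, and at 9.73 ± 0.30 in Mst1, where 1 animal lay within the Ntg range. How far the probe sets read the transgenes themselves is not known. Cardiac myocyte markers were bright in every animal, with a summed signal of the 12 markers between 15.42 and 15.89 log2. The fat gene Adipoq was higher in Ntg 1301 than in the other Ntg animals (6.23 against 4.17 to 4.58 log2), and higher in dnPI3K-Mst1 1650 than in the others of that genotype (5.64 against 3.65 to 3.92).

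All 40 genes fell in the atria of Mst1 animals relative to Ntg. The background share of genes called lower in this comparison was 14.2% of the 15219 tested, a call being an adjusted p under 0.05 in limma. For each of the 40 genes every Mst1 animal lay below every Ntg animal, a pattern that held for 14.6% of tested genes. The median change was -0.70 log2, with a range from -1.40 (Ppm1k) to -0.32 (Mdh1), while the median of all tested genes was -0.001. At least 2-fold falls were seen for 7 genes: Ppm1k, Aldh6a1, Ivd, Dbt, Acat1, Suclg2 and Mccc2. The share of all tested genes with a fall of that size was not counted. In bulk atria, fewer cells of a type and less RNA per cell cannot be told apart. Without Ntg 1301 the call of Pcx was lost and 39 remained called (12.4% of tested genes were called lower in that run).

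The dnPI3K animals showed smaller differences. Compared with Ntg, 11 genes fell and none rose, against 2.75% of tested genes called lower and 1.29% called higher. The 11 were Idh3a, Idh3b, Dlst, Suclg2, Mdh2, Got2, Bckdha, Ivd, Mccc2, Pcca and Bdh1. Of the 40 estimates 39 were negative, with a median of -0.26 log2 (all tested genes -0.004), and in 24 genes every dnPI3K animal lay below every Ntg animal (7.7% of tested genes). The 29 genes without a call included 22 with an unadjusted limma p under 0.05. The share of all tested genes at that unadjusted level was not counted. The count of 11 calls moved with single animals. It was 1 without Ntg 1662, 2 without Ntg 1834, 4 without dnPI3K 1507 or dnPI3K 3241, 5 without dnPI3K 1648 or dnPI3K 1660, 6 without Ntg 1657, 7 without Ntg 1301 or Mst1 1838, and 18 without Mst1 1466. The share of all tested genes called lower moved as well. It was 1.71% without Ntg 1662, 1.96% without Ntg 1834, 1.68% without dnPI3K 1507 and 4.57% without Mst1 1466. Bdh1 alone of the 40 was called without Ntg 1662, and Bdh1 and Idh3b without Ntg 1834. Bdh1 was also the 1 gene called on the arrays labelled right alone (1.05% of tested genes called lower), and Hibch the 1 called on those labelled left (0.499%).

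In dnPI3K-Mst1 animals 39 of the 40 genes fell relative to Ntg (background 14.2% called lower), the exception being Pcx. The median change was -0.84 log2 and all 40 estimates were negative. A fall of 2-fold or more was seen for 8 genes: Bdh1, Ppm1k, Idh3b, Acat1, Ivd, Got1, Mccc2 and Sucla2 (share of all tested genes not counted). These 3 comparisons share the same 4 Ntg animals, so the patterns are set side by side without a measure of their likeness.

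**Figure D1:**
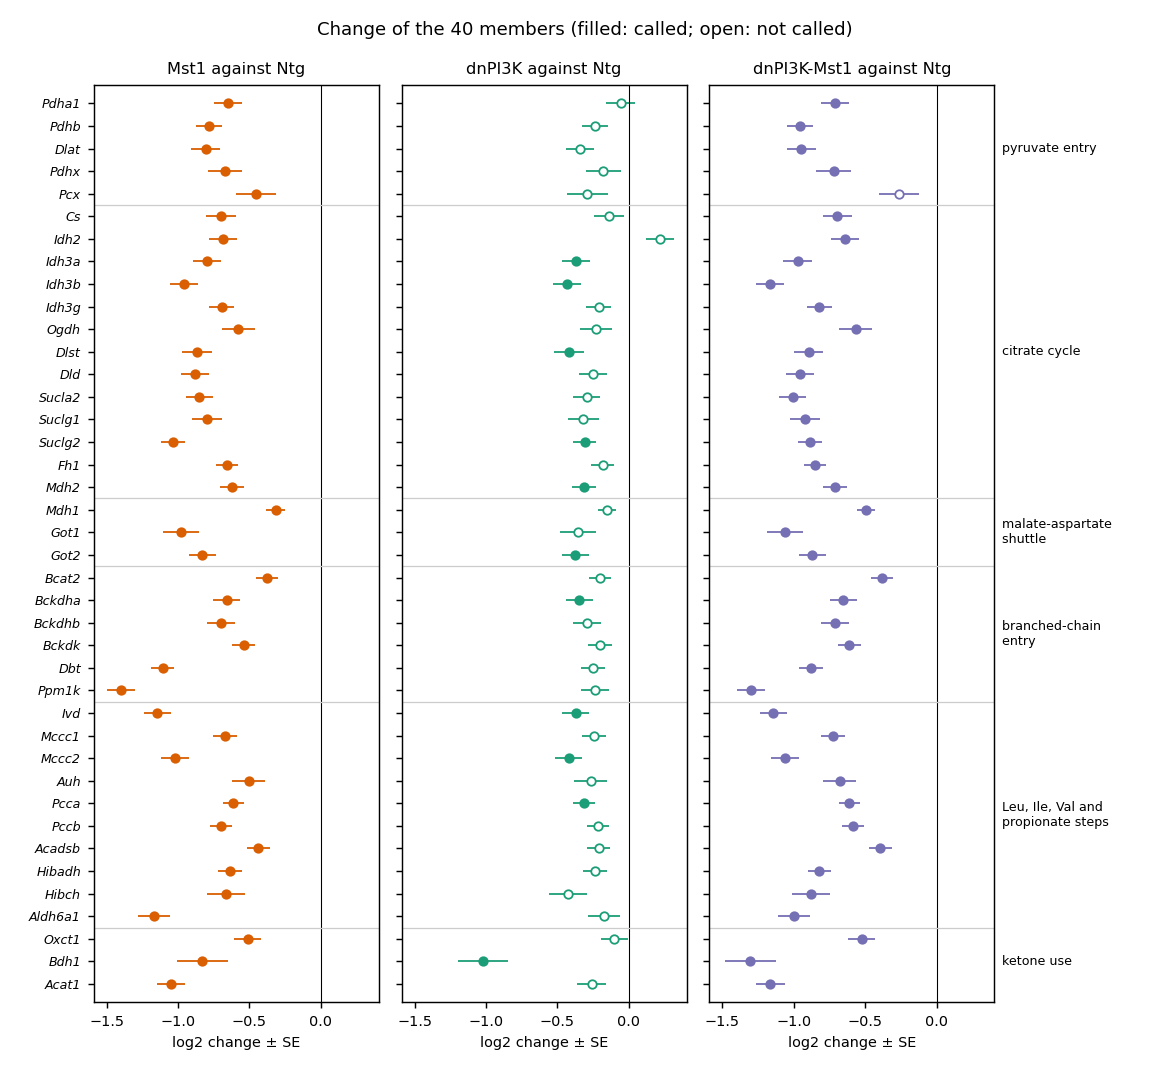
Log2 change of each of the 40 genes (rows, grouped by role) relative to Ntg in Mst1, dnPI3K and dnPI3K-Mst1 animals, with points for the estimate and bars for its standard error; filled points were called. All 40 points are filled for Mst1, 11 for dnPI3K and 39 for dnPI3K-Mst1.

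The animals of a genotype varied in how far they lay from Ntg. The median distance of the 40 genes from the Ntg mean was -0.87, -0.73, -0.66 and -0.66 log2 in Mst1 1466, 1838, 1839 and 1840. It was between -0.30 and -0.23 log2 in the 4 dnPI3K animals. The dnPI3K-Mst1 animals 1509, 1647, 1649 and 1650 stood at -0.79, -1.03, -0.80 and -0.65 log2. The deepest Mst1 animal, 1466, is one of those with an array that stood apart, the one labelled left, and its array labelled right read higher for 39 of the 40 genes. Without the 4 arrays that stood apart all 40 genes were called for Mst1, 39 for dnPI3K-Mst1 and 10 for dnPI3K. In that run 13.3%, 14.7% and 2.86% of tested genes were called lower. Without the whole animal Mst1 1466 all 40 were called in Mst1 and the dnPI3K count was 18 (14% and 4.57% of tested genes called lower).

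**Figure D2:**
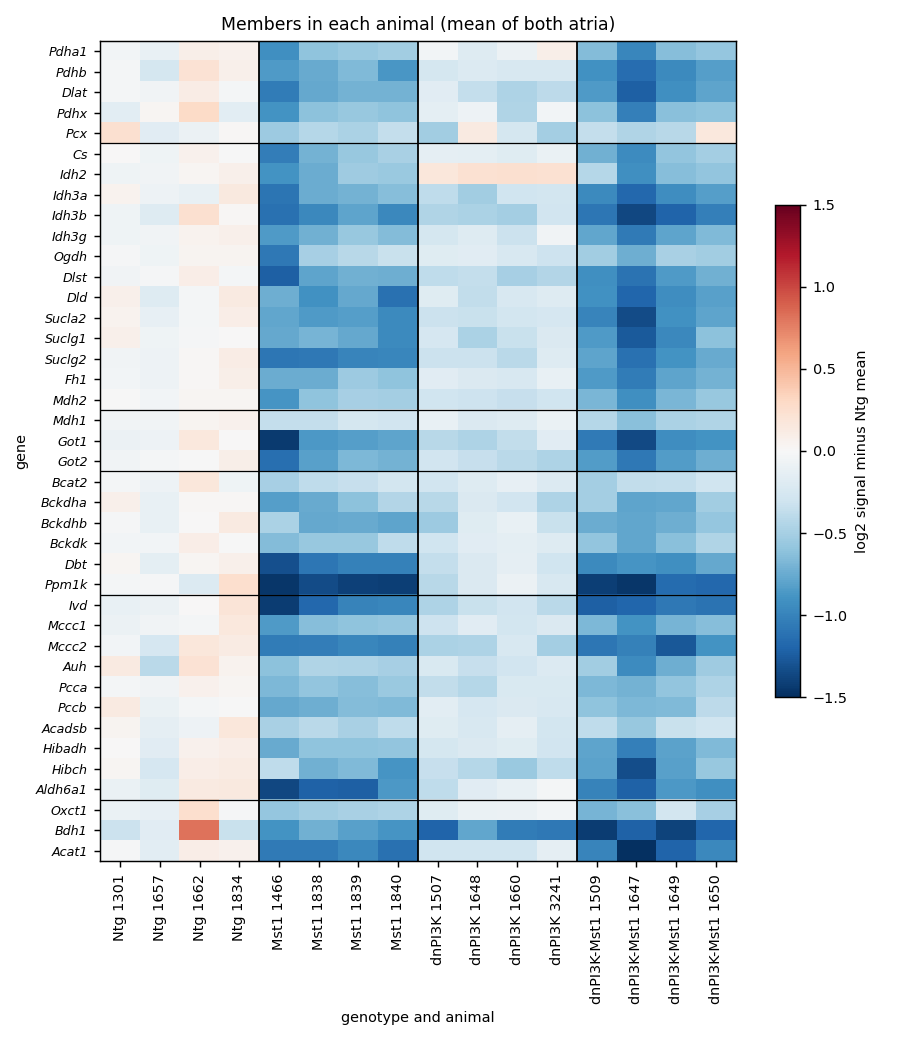
Signal of each of the 40 genes (rows) in each of the 16 animals (columns, mean of both atria), as the log2 difference from the Ntg mean; blue is lower and red higher. The Mst1 and dnPI3K-Mst1 columns are blue in nearly all rows, the dnPI3K columns are paler, and Idh2 is red in all 4 dnPI3K animals.

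The pyruvate dehydrogenase complex converts pyruvate to acetyl-CoA. Its 4 genes here are Pdha1 and Pdhb (the subunits of the first enzyme), Dlat (the acetyltransferase core) and Pdhx (which anchors the third enzyme to the core). In Mst1 animals they fell by 0.65, 0.78, 0.81 and 0.67 on the log2 scale. In dnPI3K-Mst1 animals they fell by 0.71, 0.96, 0.95 and 0.72. None was called in dnPI3K animals, where the estimates were -0.06 ± 0.10 (SE) for Pdha1, -0.24 ± 0.09 for Pdhb, -0.34 ± 0.10 for Dlat and -0.18 ± 0.12 for Pdhx.

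Pcx encodes pyruvate carboxylase, which makes oxaloacetate from pyruvate and so refills the cycle. Its signal was 6.75, 6.33, 6.41 and 6.51 log2 in the Ntg animals and 5.96, 6.07, 6.02 and 6.14 in the Mst1 animals. The dnPI3K animals read 5.98, 6.64, 6.24 and 5.99, and the dnPI3K-Mst1 animals 6.14, 6.05, 6.09 and 6.66. The Mst1 animals lay below all Ntg animals, whereas each of the other groups had 1 animal inside the Ntg range. Pcx fell by 0.45 ± 0.14 (SE) in Mst1 (adjusted p = 0.021), and the adjusted p ranged up to 0.22 over 28 alternatives, 24 of which kept the call; it was lost without Ntg 1301, on the arrays of either side label alone and with all arrays fitted with the animal as a random block. In dnPI3K-Mst1 the estimate was -0.27 ± 0.14 (adjusted p = 0.17), and it was 0.01 on the arrays labelled right. Without dnPI3K-Mst1 1650, the animal at 6.66, Pcx was called in that genotype too (adjusted p = 0.024). Both animals on which these calls turn, Ntg 1301 and dnPI3K-Mst1 1650, had the highest Adipoq signal of their genotype beside the highest Pcx signal. The same held for dnPI3K 1648, with 4.64 log2 of Adipoq and 6.64 of Pcx, but not for Mst1 1466, whose Adipoq was the highest of the Mst1 animals (4.71) and whose Pcx was the lowest (5.96). The part of fat in the Pcx values was not tested.

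All 13 citrate cycle genes fell in Mst1 animals (median -0.80 log2) and all 13 fell in dnPI3K-Mst1 animals (median -0.89). Cs, which encodes citrate synthase and opens the cycle, fell by 0.70 ± 0.10 in Mst1 and by 0.69 ± 0.10 in dnPI3K-Mst1, and its estimate in dnPI3K was -0.14 ± 0.10 (adjusted p = 0.56). The NAD-linked isocitrate dehydrogenase is built from the products of Idh3a, Idh3b and Idh3g. In Mst1 animals these fell by 0.80, 0.96 and 0.69 on the log2 scale, and in dnPI3K-Mst1 animals by 0.97, 1.17 and 0.82. Idh3a also fell in dnPI3K (-0.37 ± 0.10, adjusted p = 0.044), a call kept in 13 of 28 alternatives. It was lost without any 1 Ntg or dnPI3K animal, and without Mst1 1838 or 1839 or dnPI3K-Mst1 1509 or 1649. The call was also lost without the filter and on the arrays of either side label alone.

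Idh3b had the largest fall of the cycle genes in dnPI3K and in dnPI3K-Mst1 animals. It stood at 11.38, 11.25, 11.67 and 11.45 log2 in Ntg, 10.32, 10.47, 10.65 and 10.48 in Mst1, 10.98, 10.96, 10.93 and 11.16 in dnPI3K, and 10.36, 10.08, 10.23 and 10.41 in dnPI3K-Mst1. Every transgenic animal lay below every Ntg animal, and the dnPI3K animals lay above all those with Mst1. The change in dnPI3K was -0.43 ± 0.10 (adjusted p = 0.015), and 25 of 28 alternatives kept the call, which was lost without Ntg 1662 (-0.35, adjusted p = 0.062) and on the arrays of either side label alone.

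Idh2, which makes NADPH in the matrix by the NADP-linked reaction, was the only gene of the 40 with a positive estimate in dnPI3K animals. Its signal was 10.85, 10.87, 10.94 and 10.99 log2 in Ntg and 11.08, 11.15, 11.16 and 11.14 in dnPI3K, so every dnPI3K animal was above every Ntg animal (3.71% of tested genes showed this). The difference of 0.22 ± 0.10 (SE) had an adjusted p of 0.25 and was not called. In Mst1 the values were 10.02, 10.17, 10.39 and 10.35, and in dnPI3K-Mst1 10.49, 9.99, 10.27 and 10.33. Idh2 fell in both of these genotypes, by 0.68 ± 0.10 and 0.64 ± 0.10, with all 8 animals below the Ntg group. Between the single transgenics it was 0.90 ± 0.10 lower in Mst1 than in dnPI3K (adjusted p = 1.18e-06).

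The 2-oxoglutarate dehydrogenase complex takes its first enzyme from Ogdh and its core from Dlst, and it shares the lipoamide dehydrogenase Dld with the pyruvate and branched-chain complexes. In Mst1 animals Ogdh fell by 0.58 ± 0.12, Dlst by 0.87 ± 0.10 and Dld by 0.88 ± 0.10. Dlst read 9.72, 9.76, 9.88 and 9.74 log2 in Ntg, 8.55, 8.99, 9.06 and 9.05 in Mst1, 9.39, 9.42, 9.28 and 9.33 in dnPI3K, and 8.86, 8.67, 8.93 and 9.06 in dnPI3K-Mst1. The Ntg animals were above all others and the dnPI3K animals were above all animals with Mst1. In dnPI3K animals the estimates of Ogdh (-0.23 ± 0.12, adjusted p = 0.33) and Dld (-0.25 ± 0.10, adjusted p = 0.19) were negative but not called. Dlst was the one gene of these 3 that was called there (-0.42 ± 0.10, adjusted p = 0.025). That call held in 20 of 28 alternatives. It was lost on the arrays of either side label alone and without any 1 of Ntg 1657, Ntg 1662, Ntg 1834, dnPI3K 1507, dnPI3K 1660 and dnPI3K 3241, with estimates between -0.46 and -0.38.

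Succinyl-CoA ligase joins the alpha subunit of Suclg1 to either the ATP-forming subunit of Sucla2 or the GTP-forming subunit of Suclg2. The fall in Mst1 was 0.80 ± 0.11 for Suclg1, 0.85 ± 0.09 for Sucla2 and 1.04 ± 0.08 for Suclg2. Suclg2 also fell in dnPI3K (-0.31 ± 0.08, adjusted p = 0.041), a call kept in 15 of 28 alternatives and lost without any 1 Ntg or dnPI3K animal other than dnPI3K 3241, and without Mst1 1838, Mst1 1839 or dnPI3K-Mst1 1649. The Suclg2 call was also lost without the filter and on the arrays of either side label alone. A second probe set of Suclg2 read -0.29 in dnPI3K and -0.85 in dnPI3K-Mst1, beside -0.31 and -0.89 for the brighter one. Fh1, encoding fumarase, fell by 0.66 ± 0.08 in Mst1 and by 0.85 ± 0.08 in dnPI3K-Mst1. Mdh2, the mitochondrial malate dehydrogenase that closes the cycle, fell by 0.62 ± 0.09 in Mst1, 0.31 ± 0.09 in dnPI3K (adjusted p = 0.044, kept in 14 of 28 alternatives) and 0.71 ± 0.09 in dnPI3K-Mst1. Leaving out any 1 Ntg or dnPI3K animal ended the dnPI3K call of Mdh2, as did leaving out Mst1 1838, dnPI3K-Mst1 1509 or dnPI3K-Mst1 1649. That call was also lost without the filter and on the arrays of either side label alone.

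Of the shuttle genes, Mdh1 encodes the cytosolic malate dehydrogenase, and Got1 and Got2 the cytosolic and mitochondrial aspartate transaminases. Mdh1 had the smallest fall of the 40 genes in Mst1 animals. Its signal was 12.11, 12.10, 12.19 and 12.23 log2 in Ntg, 11.80, 11.80, 11.89 and 11.87 in Mst1, 12.05, 11.95, 11.96 and 12.06 in dnPI3K, and 11.73, 11.53, 11.69 and 11.71 in dnPI3K-Mst1. The 4 groups did not overlap, and they stood in the order Ntg, dnPI3K, Mst1 and dnPI3K-Mst1. Mdh1 was picked after its values were seen, and the share of tested genes with such an order was not counted. Mdh1 fell by 0.32 ± 0.06 in Mst1 and by 0.49 ± 0.06 in dnPI3K-Mst1. The gap of -0.15 ± 0.06 between dnPI3K and Ntg was not called (adjusted p = 0.22), nor was that of -0.16 ± 0.06 between Mst1 and dnPI3K (0.078) or that of -0.18 ± 0.06 between dnPI3K-Mst1 and Mst1 (0.14). Got1 fell by 0.98 ± 0.13 in Mst1 and by 1.06 ± 0.13 in dnPI3K-Mst1. Got2 fell by 0.83 ± 0.09, 0.37 ± 0.09 (adjusted p = 0.028, kept in 20 of 28 alternatives) and 0.87 ± 0.09 in Mst1, dnPI3K and dnPI3K-Mst1, and its second probe set read -0.84, -0.39 and -0.87. The Got2 call in dnPI3K was lost without Ntg 1657, 1662 or 1834 and without dnPI3K 1648, 1660 or 3241. On the arrays of either side label alone it was lost too.

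All 6 genes of branched-chain entry fell in Mst1 animals (median -0.68 log2) and in dnPI3K-Mst1 animals (median -0.68). Bcat2, the mitochondrial branched-chain transaminase, had the smallest changes of the 6, with -0.38 ± 0.08 in both genotypes. Bckdha and Bckdhb encode the subunits of the first enzyme of the ketoacid dehydrogenase complex, and fell in Mst1 by 0.66 ± 0.09 and 0.70 ± 0.10. In dnPI3K all 6 estimates were negative, with a median of -0.25 log2, and each had an unadjusted limma p under 0.05 (share of all tested genes not counted). Bckdha alone was called there (-0.35 ± 0.09, adjusted p = 0.044). That call was kept in 15 of 28 alternatives and lost without any 1 Ntg animal and without dnPI3K 1507, 1660 or 3241 or Mst1 1838 or 1839. It was also lost without the filter, on the arrays of either side label alone and without the arrays that stood apart.

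Dbt encodes the transacylase core of that complex and was second to Ppm1k among the 6 in Mst1 animals. Its values were 7.69, 7.51, 7.69 and 7.73 log2 in Ntg, 6.33, 6.57, 6.64 and 6.65 in Mst1, 7.30, 7.44, 7.52 and 7.35 in dnPI3K, and 6.70, 6.77, 6.74 and 6.89 in dnPI3K-Mst1. All dnPI3K-Mst1 animals lay above all Mst1 animals and below the other groups. The fall was 1.11 ± 0.08 (2.16-fold) in Mst1 and 0.88 ± 0.08 in dnPI3K-Mst1, and the difference of 0.23 ± 0.08 between these genotypes was not called (adjusted p = 0.14).

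Ppm1k, the phosphatase that activates the complex, had the largest fall of the 40 genes in Mst1 animals. Its signal was 9.48, 9.49, 9.31 and 9.75 log2 in Ntg and 8.05, 8.17, 8.10 and 8.10 in Mst1. In dnPI3K it was 9.09, 9.28, 9.42 and 9.27, and in dnPI3K-Mst1 8.09, 8.05, 8.36 and 8.33. The 8 animals with Mst1 lay between 8.05 and 8.36, and the 8 without it between 9.09 and 9.75. Ppm1k was 2.64-fold lower in Mst1 (-1.40 ± 0.10, adjusted p = 3.53e-09) and 2.46-fold lower in dnPI3K-Mst1 (-1.30 ± 0.10). The dnPI3K estimate of -0.24 ± 0.10 was not called (adjusted p = 0.21).

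Bckdk, the kinase that inactivates the complex, fell less. It read 9.14, 9.14, 9.28 and 9.18 log2 in Ntg, 8.53, 8.62, 8.62 and 8.81 in Mst1, 8.89, 9.02, 9.03 and 8.99 in dnPI3K, and 8.59, 8.40, 8.56 and 8.73 in dnPI3K-Mst1. Both groups with Mst1 lay below the other groups. The changes were -0.54 ± 0.08 in Mst1, -0.20 ± 0.08 in dnPI3K (adjusted p = 0.20) and -0.61 ± 0.08 in dnPI3K-Mst1.

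**Figure D3:**
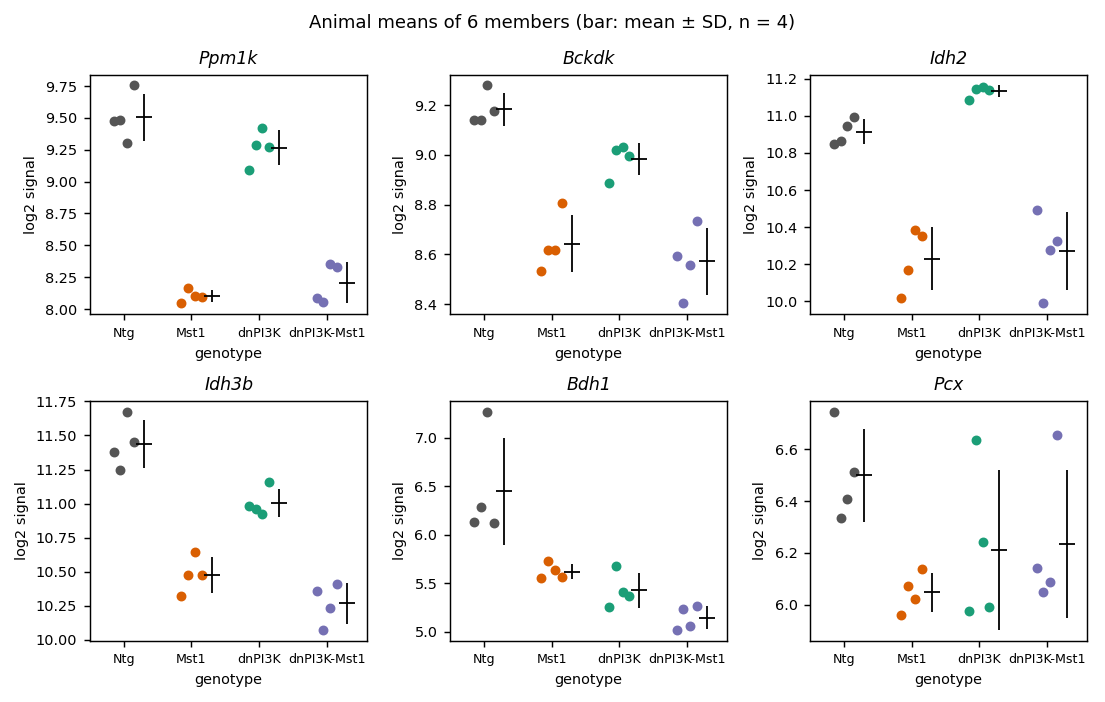
Log2 signal of Ppm1k, Bckdk, Idh2, Idh3b, Bdh1 and Pcx in each animal (points, mean of both atria) by genotype, with the mean ± SD of 4 animals as bars; each panel has its own axis. Ppm1k lies between 8.05 and 8.36 in all 8 animals with Mst1 and at 9.09 or above in the others, and 1 Ntg animal stands far above the rest for Bdh1.

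The 10 genes of later steps in the breakdown of leucine, isoleucine, valine and propionate all fell in Mst1 (median -0.67 log2) and in dnPI3K-Mst1 (median -0.77). On the leucine branch, Ivd encodes isovaleryl-CoA dehydrogenase. It read 9.44, 9.46, 9.56 and 9.74 log2 in Ntg, 8.12, 8.37, 8.55 and 8.57 in Mst1, 9.09, 9.21, 9.27 and 9.15 in dnPI3K, and 8.33, 8.36, 8.48 and 8.44 in dnPI3K-Mst1. The dnPI3K-Mst1 animals lay within the Mst1 range, and both groups lay below dnPI3K, which lay below Ntg. Ivd fell by 1.15 ± 0.09 in both genotypes with Mst1 (2.21-fold) and by 0.37 ± 0.09 in dnPI3K (adjusted p = 0.031, kept in 21 of 28 alternatives and lost without Ntg 1662, Ntg 1834, dnPI3K 1507, dnPI3K 1648 or dnPI3K 3241). The dnPI3K call of Ivd was also lost on the arrays of either side label alone.

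Mccc1 and Mccc2 encode the biotin-bearing and the carboxyltransferase subunit of methylcrotonyl-CoA carboxylase, the next leucine enzyme. Mccc2 stood at 7.78, 7.56, 7.99 and 7.94 log2 in Ntg, 6.77, 6.78, 6.84 and 6.81 in Mst1, 7.35, 7.36, 7.57 and 7.30 in dnPI3K, and 6.73, 6.81, 6.55 and 6.93 in dnPI3K-Mst1. The dnPI3K and Ntg groups met at 7.57 and 7.56, while all animals with Mst1 were lower. Mccc2 fell by 1.02 ± 0.10 in Mst1, 0.42 ± 0.10 in dnPI3K (adjusted p = 0.017, kept in 22 of 28 alternatives) and 1.06 ± 0.10 in dnPI3K-Mst1. The dnPI3K call was lost on the arrays of either side label alone, and without Ntg 1662, Ntg 1834, dnPI3K 1507 or dnPI3K 3241, where the adjusted p was between 0.051 and 0.065. Mccc1 fell by 0.67 ± 0.08 and 0.72 ± 0.08 in the genotypes with Mst1. Auh, the hydratase that follows, fell by 0.51 ± 0.11 and 0.68 ± 0.11.

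On the valine branch, Aldh6a1 encodes methylmalonate semialdehyde dehydrogenase. Its values were 9.20, 9.12, 9.44 and 9.44 log2 in Ntg, 7.93, 8.09, 8.08 and 8.43 in Mst1, 8.92, 9.13, 9.19 and 9.27 in dnPI3K, and 8.30, 8.08, 8.44 and 8.38 in dnPI3K-Mst1. The dnPI3K animals overlapped the Ntg range, and the animals with Mst1 lay below both. Aldh6a1 fell by 1.17 ± 0.11 (2.25-fold) in Mst1 and by 1.00 ± 0.11 in dnPI3K-Mst1, with -0.17 ± 0.11 in dnPI3K (adjusted p = 0.49). Hibch and Hibadh, the hydrolase and dehydrogenase that come before it, fell by 0.66 ± 0.13 and 0.64 ± 0.08 in Mst1 and by 0.88 ± 0.13 and 0.82 ± 0.08 in dnPI3K-Mst1. Hibch read 8.36, 8.08, 8.43 and 8.45 log2 in Ntg and 7.99, 7.90, 7.78 and 7.95 in dnPI3K. Every dnPI3K animal was thus below every Ntg animal (7.7% of tested genes showed this). Its dnPI3K estimate of -0.43 ± 0.13 was larger in size than those of Mccc2 and Dlst but was not called (adjusted p = 0.079). A second probe set of Hibadh was dim (mean 2.89 log2) and was not used.

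Acadsb, the short branched-chain acyl-CoA dehydrogenase of the isoleucine branch, fell by 0.44 ± 0.08 in Mst1 and by 0.39 ± 0.08 in dnPI3K-Mst1, the smallest changes among the 10. Pcca and Pccb encode the subunits of propionyl-CoA carboxylase, which leads propionate towards the cycle. They fell by 0.61 ± 0.07 and 0.70 ± 0.08 in Mst1 and by 0.61 ± 0.07 and 0.58 ± 0.08 in dnPI3K-Mst1. Pcca also fell in dnPI3K (-0.31 ± 0.07, adjusted p = 0.020, kept in 21 of 28 alternatives and lost without Ntg 1662, Ntg 1834, dnPI3K 1507 or dnPI3K 1648), whereas Pccb, at -0.22 ± 0.08, was not called (adjusted p = 0.13). The Pcca call was also lost on the arrays of either side label alone and without the arrays that stood apart. That Pcca changed differently from Pccb was not shown. Within animals, Pcca minus Pccb changed by -0.10 ± 0.08 in dnPI3K relative to Ntg (exact permutation p = 0.17).

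Ketone bodies enter through Bdh1 (3-hydroxybutyrate dehydrogenase), Oxct1 (the CoA transferase) and Acat1 (the thiolase that yields acetyl-CoA, which also serves isoleucine). Bdh1 had the largest fall of the 40 genes in dnPI3K and in dnPI3K-Mst1 animals. It was also the dimmest of the 40, with a mean of 5.66 log2 beside a filter at 4.48, and had the largest SE. It read 6.13, 6.29, 7.27 and 6.12 log2 in Ntg, 5.55, 5.73, 5.64 and 5.57 in Mst1, 5.26, 5.67, 5.41 and 5.37 in dnPI3K, and 5.02, 5.23, 5.06 and 5.27 in dnPI3K-Mst1. The 4 Ntg animals lay above all others, and Ntg 1662 stood far above the other Ntg animals. The changes were -0.83 ± 0.18 in Mst1, -1.02 ± 0.18 (2.03-fold) in dnPI3K and -1.30 ± 0.18 (2.47-fold) in dnPI3K-Mst1. Without Ntg 1662 they were -0.56, -0.75 and -1.03 and were still called. On the arrays labelled left alone the dnPI3K change was -1.02 and missed the threshold (adjusted p = 0.073). Between Mst1 and dnPI3K, Bdh1 had the 1 positive estimate of the 40 genes (0.19 ± 0.18, adjusted p = 0.49).

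Acat1 stood at 10.01, 9.87, 10.13 and 10.09 log2 in Ntg, 8.96, 8.97, 9.06 and 8.90 in Mst1, 9.72, 9.72, 9.73 and 9.88 in dnPI3K, and 9.03, 8.51, 8.83 and 9.06 in dnPI3K-Mst1. The animals with Mst1 lay at 9.06 or below and the others at 9.72 or above. Acat1 fell by 1.05 ± 0.10 in Mst1 and by 1.16 ± 0.10 in dnPI3K-Mst1, and -0.26 ± 0.10 in dnPI3K was not called (adjusted p = 0.18). Oxct1 fell by 0.51 ± 0.09 and 0.53 ± 0.09 in the genotypes with Mst1, and its dnPI3K estimate was -0.10 ± 0.09 (adjusted p = 0.65).

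Pairs of opposed or partnered enzymes, 10 in all, were compared within each animal, to see whether a genotype changed both to the same extent. Probe sets differ in affinity, so only the change of such a difference can be read and not its level. None of the 30 tests (10 pairs in 3 comparisons with Ntg) passed after Benjamini-Hochberg adjustment. With 4 animals against 4 the smallest two-sided exact permutation p is 0.0286, and the 10 tests that reached it had an adjusted p of 0.0857. With this floor a pair could not pass the adjustment over 30 tests on its own, however large its change. The lack of a pass therefore does not show that any pair changed equally. Kinase minus phosphatase, Bckdk minus Ppm1k, was -0.34, -0.35, -0.03 and -0.58 in Ntg, 0.49, 0.45, 0.51 and 0.71 in Mst1, -0.21, -0.27, -0.39 and -0.27 in dnPI3K, and 0.51, 0.35, 0.20 and 0.40 in dnPI3K-Mst1. All 8 animals with Mst1 had a higher difference than any of the 8 without it. Relative to Ntg it was higher by 0.86 ± 0.13 (SE) in Mst1 and by 0.69 ± 0.13 in dnPI3K-Mst1, and by 0.04 ± 0.12 in dnPI3K (exact permutation p = 0.71).

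Mdh1 minus Mdh2 exceeded its Ntg value by 0.31 ± 0.08 (Mst1), 0.16 ± 0.03 (dnPI3K) and 0.22 ± 0.04 (dnPI3K-Mst1), without overlap in any of the 3. Idh2 minus Idh3a was higher by 0.59 ± 0.08 in dnPI3K and by 0.33 ± 0.09 in dnPI3K-Mst1, again without overlap. In Mst1, where both genes fell, the same difference changed by 0.11 ± 0.07 (exact permutation p = 0.17). Bcat2 minus Bckdha was higher by 0.28 ± 0.07 in Mst1. In dnPI3K-Mst1, Pdha1 minus Pdhb was higher by 0.24 ± 0.06 and Got1 minus Got2 lower, at -0.19 ± 0.07. The alpha and beta subunits of the branched-chain complex (Bckdha and Bckdhb) and of propionyl-CoA carboxylase (Pcca and Pccb) gave changes between -0.10 and 0.09, none of which reached the smallest p. Sucla2 minus Suclg2 changed by 0.18 ± 0.07 in Mst1 and by -0.12 ± 0.06 in dnPI3K-Mst1, and Mccc1 minus Mccc2 by 0.35 ± 0.10 and 0.34 ± 0.13, all with an exact permutation p above 0.05.

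**Figure D4:**
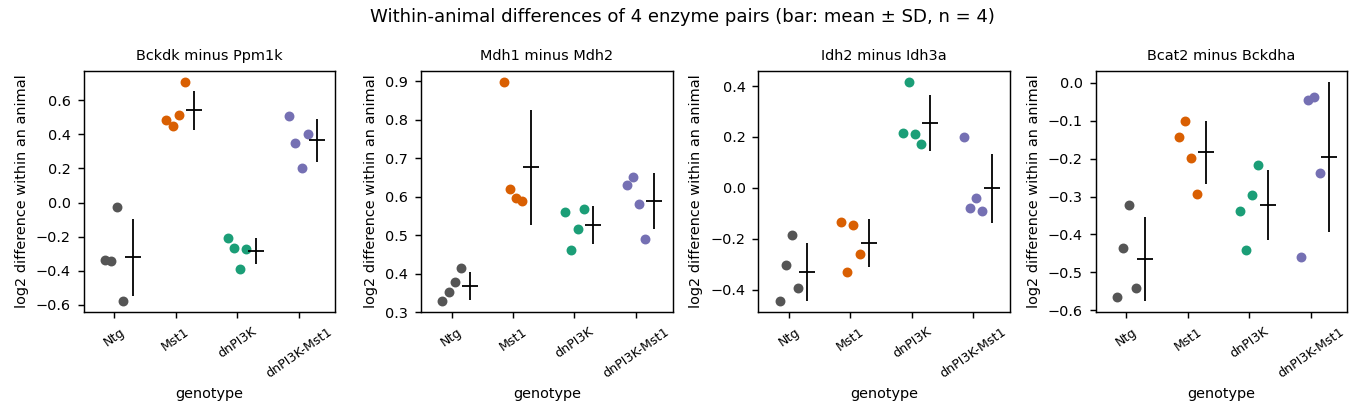
Difference in log2 signal between the genes of 4 enzyme pairs within each animal (points), by genotype, with the mean ± SD of 4 animals as bars; each panel has its own axis and only changes between genotypes can be read. Bckdk minus Ppm1k is higher in all 8 animals with Mst1 than in any of the other 8.

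The single transgenics were compared directly as well. Of the 40 genes 33 were lower in Mst1 than in dnPI3K (background 10% called lower) and none was higher (background 11.8%), with a median difference of -0.47 log2. The 7 without a call were Pcx, Mdh1, Bcat2, Auh, Acadsb, Hibch and Bdh1. The double transgenic was lower than dnPI3K for 36 of the 40 genes (background 8.8%), all but Pcx, Bcat2, Acadsb and Bdh1, with a median of -0.57.

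Against Mst1, the double transgenic differed little. None of the 40 genes was called by limma (3.5% of tested genes were, in either direction), and 6 had an unadjusted p under 0.05: Idh3b, Fh1, Mdh1, Dbt, Hibadh and Bdh1. How many of all tested genes reached that unadjusted level was not counted. The median difference was -0.05 log2, with a range from -0.47 (Bdh1) to 0.23 (Dbt). This median was 0.007 without dnPI3K-Mst1 1647, where 19 of the 40 estimates were negative, and -0.12 without Mst1 1466. It was -0.02 without Mst1 1840, -0.03 without Mst1 1839, and -0.10 without dnPI3K-Mst1 1650. The arrays labelled left gave 0.008 and those labelled right -0.10, and -0.09 was found without the arrays that stood apart. A missed threshold does not show that the genotypes are alike. Bdh1 was called when only the genotypes compared were fitted and also without Ntg 1662, and Suclg2, Mdh1 and Bdh1 were called with array quality weights.

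A non-additivity term (the difference between dnPI3K-Mst1 and Mst1, less that between dnPI3K and Ntg) asked whether the changes of the single transgenics add up in the double. None of the 40 genes was called by limma for this term (background 0.513%), and 14 had an unadjusted p under 0.05. The 0.513% is for adjusted calls, and the share of all tested genes at the unadjusted level was not counted. The term was positive for 36 genes, with a median of 0.21 log2 (all tested genes 0.03), so these estimates put the double transgenic above the sum of the single changes. On the arrays labelled left the median was 0.35 with no negative estimate, and on those labelled right 0.11 with 13 negative. The nearest to a call were Dbt (0.48 ± 0.12, adjusted p = 0.072) and Suclg2 (0.46 ± 0.12, adjusted p = 0.089). Both were called with array quality weights, and Suclg2 without dnPI3K-Mst1 1647.

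Other genes of these pathways were counted from a list of 74, of which 65 were on the array and 64 were tested. In Mst1 animals 41 fell and 2 rose (median -0.38 log2), in dnPI3K animals 11 fell and 1 rose (median -0.20), and in dnPI3K-Mst1 animals 41 fell and 2 rose (median -0.44). Of all tested genes 14.2%, 2.75% and 14.2% were called lower in these comparisons, and 12.6%, 1.29% and 16.4% were called higher. The largest falls in Mst1 were of Echs1 (enoyl-CoA hydratase, -1.22), the mitochondrial malic enzyme Me3 (-1.14), the oxoglutarate carrier Slc25a11 (-1.09), Aldh5a1 (succinate semialdehyde dehydrogenase, -1.06), Sdhb (a subunit of succinate dehydrogenase, -1.03) and the pyruvate dehydrogenase kinase Pdk2 (-1.03). By list, the falls in Mst1 were of 6 of 8 genes of pyruvate regulation, 11 of 17 of the cycle and its supply, 7 of 8 of lipoylation, 6 of 12 of branched-chain and propionate steps, 1 of 4 of ketone use and 10 of 15 of other amino acids. With so few genes, 1 of 4 cannot be told from the background of 14.2%. In dnPI3K-Mst1 animals the largest falls were of Echs1 (-1.25), Sdhb (-1.20), Me3 (-1.17), Aldh5a1 (-1.12), Slc25a11 (-1.10) and the epimerase Mcee (-1.10). The 4 subunit genes of succinate dehydrogenase fell in Mst1 by 0.77 (Sdha), 1.03 (Sdhb), 0.67 (Sdhc) and 0.70 (Sdhd). Bcat1, the cytosolic transaminase, rose by 0.27 in Mst1 and 0.29 in dnPI3K-Mst1, and Slc3a2, the heavy chain of amino acid transporters, by 0.32 and 0.39.

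Several genes of the list had larger changes in dnPI3K than any of the 40 genes other than Bdh1. Asns (asparagine synthetase) fell by 1.38, the malic enzymes Me1 and Me3 by 0.72 each, Abat (the GABA transaminase) by 0.66, and the amino acid transporter Slc7a5 by 0.65. Slc16a7, a monocarboxylate transporter, rose by 1.04. Klf15, a transcription factor known to induce branched-chain catabolism, was not called in any of the 3, with -0.17 for Mst1, 0.01 for dnPI3K and -0.13 for dnPI3K-Mst1. The lipoylation genes make or attach lipoate, the cofactor of all 3 ketoacid dehydrogenase complexes, or supply iron-sulfur clusters for it, and 7 of the 8 fell in Mst1 and 7 in dnPI3K-Mst1, with medians of -0.35 and -0.44. In dnPI3K all 8 estimates were negative, and Glrx5 alone was called (-0.34). Of all tested genes 14.2%, 2.75% and 14.2% were called lower in Mst1, dnPI3K and dnPI3K-Mst1.

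**Figure D5:**
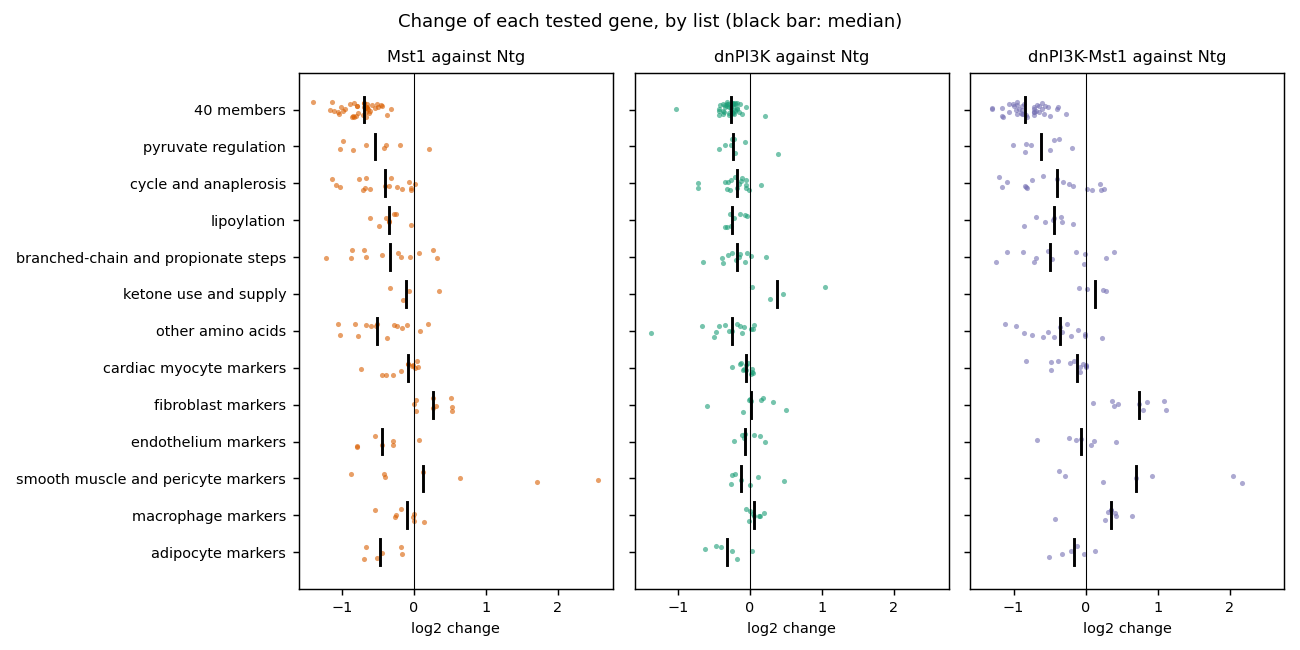
Log2 change relative to Ntg of each tested gene (points) for the 40 genes, the other pathway genes by list, and markers of 6 cell types, in Mst1, dnPI3K and dnPI3K-Mst1 animals; black bars are medians. The 40 genes have medians of -0.70, -0.26 and -0.84, and the cardiac myocyte markers -0.08, -0.05 and -0.12.

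Markers of the cell types in atria were read beside these results. The background is 14.2% of tested genes called lower and 12.6% called higher in Mst1, 2.75% and 1.29% in dnPI3K, and 14.2% and 16.4% in dnPI3K-Mst1. Counts of 1 gene in a list of 7 or 8 lie near these shares in the genotypes with Mst1. Of 12 cardiac myocyte markers 3 fell in Mst1 (Tnni3 by 0.73, Tnnc1 by 0.39 and Myl7 by 0.30), none was called in dnPI3K and 5 fell in dnPI3K-Mst1, with medians of -0.08, -0.05 and -0.12. Their summed signal ranged from 15.76 to 15.89 log2 in Ntg, 15.42 to 15.78 in Mst1, 15.73 to 15.79 in dnPI3K and 15.53 to 15.76 in dnPI3K-Mst1. Fibroblast markers rose for 7 of 9 genes in dnPI3K-Mst1, for 2 in Mst1 and for 1 in dnPI3K, and their summed signal was 13.38 to 13.74 in Ntg, 13.74 to 13.82, 13.41 to 13.78 and 13.88 to 14.31 in Mst1, dnPI3K and dnPI3K-Mst1. Endothelial markers fell for 4 of 7 genes in Mst1, for none in dnPI3K and for 1 in dnPI3K-Mst1, where 1 rose. The endothelial sums were 12.28 to 12.50 in Ntg, 11.93 to 12.21 in Mst1, 12.34 to 12.51 in dnPI3K and 12.27 to 12.53 in dnPI3K-Mst1. Of 8 macrophage markers 1 fell in Mst1 and 3 rose in dnPI3K-Mst1, with sums of 11.21 to 11.71 in Ntg, 11.25 to 11.54 in Mst1, 11.32 to 11.71 in dnPI3K and 11.48 to 12.20 in dnPI3K-Mst1. Of 7 smooth muscle and pericyte markers, Cnn1, Tagln and Acta2 rose and Rgs5 and Kcnj8 fell in Mst1, and 4 rose in dnPI3K-Mst1. Their sums were 11.04 to 11.42 in Ntg, 11.25 to 11.73 in Mst1, 11.17 to 11.38 in dnPI3K and 11.76 to 11.96 in dnPI3K-Mst1. Mesothelial markers fell for 3 of 5 genes in Mst1, and skeletal muscle markers rose for 2 of 5 tested genes in Mst1 and 2 in dnPI3K-Mst1. Of 4 tested lymphocyte markers 1 rose and of 2 erythroid markers 1 fell in dnPI3K-Mst1. Adipocyte markers fell for 2 of 6 tested genes in Mst1 and 1 in dnPI3K-Mst1, with sums of 9.76 to 10.83 in Ntg, 9.60 to 9.95 in Mst1, 9.80 to 10.04 in dnPI3K and 9.43 to 10.53 in dnPI3K-Mst1. The adipocyte genes Adipoq and Lep were below the filter. The part of these shifts in the changes of the 40 genes was not tested.

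The atria of an animal differed by a median of 0.17 log2 over the 40 genes, near the 0.15 over all tested genes. In some animals the gap ran 1 way for nearly all 40. The array labelled right read higher for 39 genes in Mst1 1466, 37 in dnPI3K-Mst1 1650 and 35 in dnPI3K 3241. It read higher for only 1 gene in dnPI3K 1660, 4 in dnPI3K-Mst1 1649 and 5 in each of dnPI3K-Mst1 1509 and 1647. On the arrays labelled left alone 39 genes were called lower in Mst1, Pcx being lost, and on those labelled right 37, with Pcx, Auh and Hibch lost. Of all tested genes 9.09% (left) and 9.78% (right) were called lower in these runs. In dnPI3K-Mst1 the count was 39 on either side, with 8.38% (left) and 11.3% (right) of tested genes called lower.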

How the data were processed

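The authors' deposited values are log2 probe set signals; the base was taken from their range (1.16 to 14.08). The submitters' processing notes name Affymetrix Expression Console and PLIER, with no version, background correction or scaling given in the sources used here. Of 35512 probe sets 21789 carried 1 gene symbol, 1621 several and 12102 none in the platform annotation, and symbols were updated through gene IDs. The brightest single-symbol probe set stood for a gene. Genes averaging less than 4.48 log2, the value at percentile 30 over the probe sets, were not tested. An animal's 2 arrays were averaged, and the 4 genotypes of 4 animals were fitted together with limma 3.58.1 in R 4.3.3 (lmFit, then eBayes with a trend), two-sided, with Benjamini-Hochberg adjustment over 15219 genes and calls at an adjusted p under 0.05. Changes are log2 differences ± SE unless SD is named. The number of animals, 4 per genotype, limits the precision. The procedure was tested on simulated data.

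Values of every animal are given for the 4 called genes with the largest fall per comparison with Ntg and for up to 4 with a rise, by rule, and for Pcx, Mdh1, Bckdk and Hibch, chosen after their values were seen. Of the other pathway genes, up to 6 called ones per comparison follow the rule, and the succinate dehydrogenase subunits, Bcat1, Slc3a2, Klf15 and Glrx5 were added after their values were seen. The 40 genes and all lists were chosen with earlier results of these data known. Enzyme pairs were compared by exact permutation tests. Alternatives covered the filter, scaling, probe sets, sides, weights, and each animal left out; leaving out the arrays that stood apart was chosen after the data were seen.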

Additional observations from a re-analysis of the deposited data

Results flagged for a closer look

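In 10 of 160 groups (40 genes in 4 genotypes) 1 animal stood apart from the other 3 by Dixon's test for an outlying value. Chance alone gives about 5%, which is near this count, and the genes of an animal are not independent. In 5 of the 10 groups the animal was Mst1 1466. It was low for Pdhx (7.36 log2, the next being 7.65), Dlst (8.55, next 8.99), Got1 (9.73, next 10.31) and Hibadh (9.68, next 9.83), and high for Bckdhb (7.69, next 7.41). Among the dnPI3K-Mst1 animals, 1647 was low for Pdhx (7.24, next 7.63) and Ogdh (10.48, next 10.69), and 1650 was high for Pcx (6.66, next 6.14). Ntg 1662 was high for Bdh1 (7.27, next 6.29), and dnPI3K 3241 was high for Acat1 (9.88, next 9.73).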

How the results depend on the processing

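The count of genes called in dnPI3K against Ntg (11) moved most: it was 7 without the filter, 1 on the arrays of either side label alone, which mix atria by Bmp10, 17 with only the genotypes compared, and between 1 and 18 when an animal was left out. In these dnPI3K runs the share of all tested genes called lower was 1.82% without the filter and 3.39% with only the genotypes compared. On the labels left and right it was 0.499% and 1.05%. Against Mst1, the count for dnPI3K-Mst1 went from 0 to 3 with array quality weights and to 1 with only the genotypes compared, and ranged from 0 to 1 with an animal left out. For non-additivity it went from 0 to 2 with array weights, and from 0 to 1 with an animal left out. The cause was not tested. The counts in the other comparisons stayed within 1.5 times under every alternative run (37 to 40 in Mst1, 39 to 40 in dnPI3K-Mst1, against Ntg). Single genes were followed through the alternatives for 13 results, picked from these same data as the largest changes per comparison, which favours stability. Of their values 346 kept direction and side of the threshold, 18 lost the call, all in dnPI3K against Ntg, and none reversed. Among all 40 genes some estimates did change sign in an alternative: Pdha1 (up to 0.03) and Ppm1k (up to 0.007) in dnPI3K, and Pcx (up to 0.01) in dnPI3K-Mst1. In Mst1 the calls of Pcx, Auh and Hibch were lost in some alternatives. Centring each array on its median or quantile normalization left the counts in Mst1 and dnPI3K-Mst1 against Ntg at 40 and 39. No paired analysis was possible because the genotypes share no animal numbers. The number of animals limits the precision.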
